A study of Mus musculus with 4 samples.

Results

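Tcf7, Lef1, Satb1, Dapl1, Nsg2, Igfbp4, Il6st, St8sia6 and Bcl11b are 9 genes of naive and early T cells, out of 55253 genes counted in immune (CD45+) cells sorted from mouse mammary glands. They were selected on their lower counts in cells tagged Lactation than in cells tagged Gestation of these same libraries. Their difference between those names is therefore a description, given with counting intervals and no test. The values are raw UMIs, counts of single captured RNA molecules, from 2 pooled droplet libraries. Hash tags, antibodies that carry a DNA barcode, mark the sample each cell came from. The earlier library holds cells tagged Nulliparous, Gestation (pregnant, in the library titles) and Lactation, and the one made a year later holds Gestation, Lactation, Involution, Regression, Balb/c and GF. A further tag, HT2, is named Germ-free on the authors' sheets of both years, while the title of the earlier library lists no germ-free sample and does list an involution sample, for which no earlier tag is named. It is called tag HT2 and enters no comparison between stages.

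Apart from the name Balb/c, which is a mouse strain, the sources used here give no strain, age, days of stage or number of animals per tag. They do not say at which reproductive stage the Balb/c and GF (germ-free) animals were taken. Gestation and Lactation have 2 hash-defined samples each, 1 per library, and every other name has 1 sample. T cells were taken as cells with at least 1 UMI of Cd3e, Cd3d and Cd3g together, and are called T-gated. They were split into a CD4 gate (a Cd4 UMI and none of Cd8b1), a CD8 gate (a Cd8b1 UMI and no Cd4) and a gate with neither. Levels are UMIs of a gene per 10000 UMIs of all genes in the same cells, with exact 95% Poisson intervals. All intervals cover counting error only, and neither animals nor cell preparations stand behind them.

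In a naive T cell, which has left the thymus and has not yet met its antigen, Tcf7 and Lef1 encode related DNA-binding factors of the WNT pathway that keep the cell quiescent and able to recirculate. Satb1 organises chromatin in T cells, and Bcl11b holds T lineage identity in naive and activated cells alike. Il6st encodes gp130, the shared signalling chain of the receptors of interleukin-6 and its relatives. St8sia6 is a sialyltransferase, and Igfbp4 binds insulin-like growth factors. Nsg2 encodes a vesicle protein and Dapl1 a small death-associated protein-like factor, and both transcripts are known markers of naive T cells. Activated and tissue-resident memory T cells commonly carry less of most of these RNAs.

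Because Tcf7 and Lef1 bind sequences with the core CTTTGA, the promoters of the 9 genes were read from RefSeq (GRCm38.p6). Each window had 250 bases before and 50 after an annotated start. All 9 symbols matched, with 18 windows. CTTTGA, or its reverse complement TCAAAG, stood in 3 of the 18 windows and in 3 of the 9 genes. Of all 32851 RefSeq windows of the same length, 16.0% held it, as did at least 1 window of 18.2% of 27025 genes. The 250 upstream bases of those 3 windows are printed 5′ to 3′ along the gene's strand, with the matches in capitals.
St8sia6, chr2:13793521-13793770, minus strand: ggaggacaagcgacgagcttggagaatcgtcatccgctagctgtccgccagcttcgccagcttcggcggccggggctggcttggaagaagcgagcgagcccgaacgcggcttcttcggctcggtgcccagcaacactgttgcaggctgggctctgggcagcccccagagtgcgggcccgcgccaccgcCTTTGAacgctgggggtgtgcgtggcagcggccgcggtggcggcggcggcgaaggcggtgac
Bcl11b, chr12:108003415-108003664, minus strand: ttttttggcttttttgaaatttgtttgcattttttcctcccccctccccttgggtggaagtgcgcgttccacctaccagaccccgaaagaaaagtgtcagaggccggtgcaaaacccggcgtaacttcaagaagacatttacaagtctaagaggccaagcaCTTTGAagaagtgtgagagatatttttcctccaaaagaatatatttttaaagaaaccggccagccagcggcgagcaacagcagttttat
Lef1, chr3:131156044-131156293, plus strand: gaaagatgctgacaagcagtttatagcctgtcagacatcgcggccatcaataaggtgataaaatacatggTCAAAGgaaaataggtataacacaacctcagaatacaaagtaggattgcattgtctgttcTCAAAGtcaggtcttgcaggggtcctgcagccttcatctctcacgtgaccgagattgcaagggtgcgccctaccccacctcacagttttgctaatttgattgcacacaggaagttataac
The match begins 62 bases before the start of St8sia6 and 89 bases before that of Bcl11b. In Lef1 a pair of reverse matches begins 180 and 120 bases before 1 of its 4 annotated starts. No window of Tcf7, Satb1, Dapl1, Nsg2, Igfbp4 or Il6st held these letters. The match is a description of sequence and no evidence of binding.

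After filtering and removal of doublets, 15285 cells of the earlier library and 14598 of the later one were analysed, and 139 cell barcodes occur in both libraries. The libraries differ in depth, with medians of 1599 and 3049 UMIs per cell, so levels were compared within a library only. T-gated cells numbered 2798 in Nulliparous, 1556 in Gestation and 1107 in Lactation of the earlier library. In the later library they numbered 2132 in Gestation, 536 in Lactation, 897 in Involution, 760 in Regression, 953 in GF and 995 in Balb/c. The Lactation tag of the later library was weak, with a median of 6 counts per cell against 13 in Gestation and 22 to 65 in the other samples. T-gated Lactation cells were deeper than those of Gestation in the earlier library (median 1949 against 1257.5 UMIs) and shallower in the later one (2800 against 3088). Cells with exactly 1 Cd3 UMI, just inside the gate, made up 10.3% of T-gated Gestation cells and 10.1% of Lactation cells of the later library. There the 9 genes summed to 4.52 UMIs per 10000 in Gestation cells with 0 Cd3 UMIs, to 10.7 with 1 and to 17.8 with 2 or more, and to 2.48, 4.70 and 7.95 in Lactation. In the earlier library, where 27.9% and 16.0% of T-gated cells had 1 Cd3 UMI, the sums were 2.82, 8.64 and 6.77 in Gestation and 1.40, 7.05 and 3.06 in Lactation.

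Summed over the 9 genes, T-gated cells held 3.63 UMIs per 10000 in Lactation of the earlier library (95% interval 3.39 to 3.87), against 7.27 in Gestation (6.93 to 7.63) and 13.2 in Nulliparous (12.9 to 13.5). The later library gave a sum of 7.58 in Lactation (7.19 to 7.997) and 17.2 in Gestation (16.9 to 17.5). Involution held 17.99, Regression 14.9, GF 12.4 and Balb/c 8.06. Lactation was thus the lowest sample in each library, and its interval overlapped only that of Balb/c (7.75 to 8.37). In such sums, fewer cells of a type and less RNA per cell cannot be told apart. The split by gates and by cells with a UMI, given further on, describes the sums in more detail and does not separate them either.

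**Figure D1:**
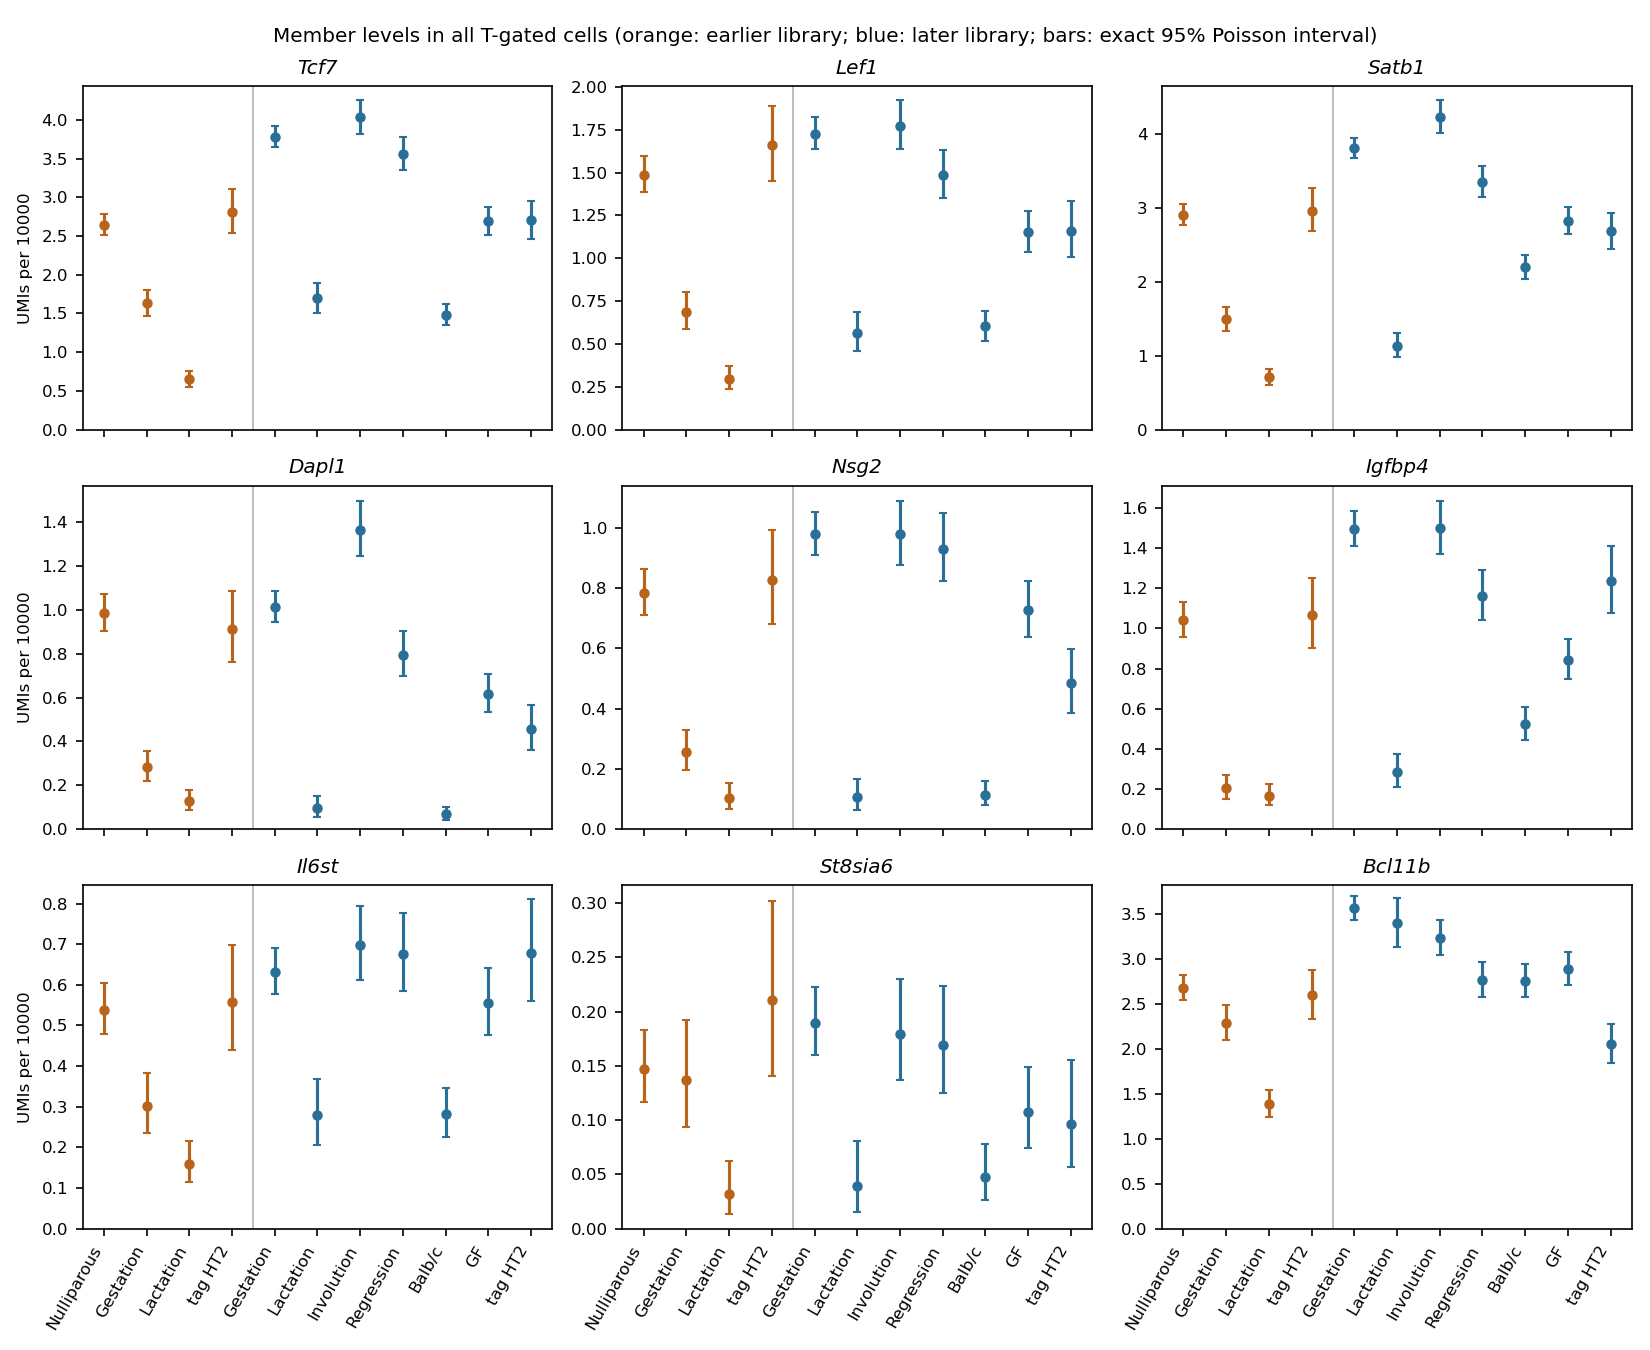
Level of each of the 9 genes in all T-gated cells, in UMIs per 10000 on a linear axis from 0, by hash-defined sample, with the earlier library in orange and the later one in blue. Points are sums over cells and bars are exact 95% Poisson intervals. Lactation is low for Tcf7 in both libraries (0.647 and 1.69), and Balb/c lies beside it in the later one (1.48).

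Of the transcription factors, Tcf7 stood at 2.65 UMIs per 10000 in Nulliparous, 1.63 in Gestation and 0.647 in Lactation of the earlier library. The later library had 3.78 in Gestation, 1.69 in Lactation, 4.03 in Involution, 3.56 in Regression, 2.69 in GF and 1.48 in Balb/c. The Lactation intervals lay below those of every other sample of their library except Balb/c. The ratio of Lactation to Gestation was -1.33 on the log2 scale in the earlier library (95% interval -1.61 to -1.06) and -1.16 in the later one (-1.33 to -0.99), a 2.52-fold and a 2.23-fold lower level. A Tcf7 UMI was found in 17.7% of T-gated Gestation cells and 11.4% of Lactation cells of the earlier library. The later shares were 56.6% and 34.5%.

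Lef1, the relative of Tcf7, stood at 1.49 UMIs per 10000 in Nulliparous, 0.687 in Gestation and 0.298 in Lactation of the earlier library. Later levels were 1.73 in Gestation, 0.563 in Lactation, 1.77 in Involution, 1.49 in Regression, 1.15 in GF and 0.602 in Balb/c. Its order over the samples was that of Tcf7, with Lactation and Balb/c exchanged and not apart by their intervals. The log2 ratio of Lactation to Gestation was -1.20 (-1.62 to -0.80) in the earlier library, while the later one gave -1.62 (-1.92 to -1.33). With a gate of at least 2 Cd3 UMIs the earlier ratio was -1.85. Cells with a Lef1 UMI went from 36.0% of T-gated cells in Gestation to 13.2% in Lactation of the later library, and from 7.84% to 5.51% in the other.

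Satb1, the chromatin organiser, had 2.90 UMIs per 10000 in Nulliparous, 1.49 in Gestation and 0.707 in Lactation of the earlier library. The later library gave 3.81 in Gestation, 1.13 in Lactation, 4.23 in Involution, 3.35 in Regression, 2.82 in GF and 2.19 in Balb/c. Here Lactation lay below Balb/c as well, with intervals that do not overlap. The log2 ratios of Lactation to Gestation were -1.07 (-1.34 to -0.81) and -1.75 (-1.96 to -1.54). Satb1 is also expressed by B cells: cells with a Cd79a UMI and no Cd3 UMI, called B-gated, held a Satb1 UMI in 21.4% to 65.0% of cells over the samples.

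Bcl11b, which marks T lineage identity, did not follow the other genes in the later library. Its levels in the earlier library were 2.67 UMIs per 10000 in Nulliparous, 2.29 in Gestation and 1.39 in Lactation, a log2 ratio of Lactation to Gestation of -0.72 (-0.92 to -0.53). Among later samples Gestation had 3.56, Lactation 3.39, Involution 3.23, GF 2.89, Regression 2.76 and Balb/c 2.75. The log2 ratio there was -0.07, with an interval of -0.20 to 0.06 that includes 0. Lactation was the second highest of those 6 samples for Bcl11b, and Gestation, Lactation and Involution were neighbours whose intervals overlap in turn. The sign of the later ratio rests on the settings: it was 0.20 under the margin rule for tags, 0.16 after thinning to 1000 UMIs per cell and 0.41 in cells with at least 10 tag counts.

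Dapl1 and Nsg2 had the lowest later ratios. Dapl1 stood at 1.013 UMIs per 10000 in Gestation and 0.0947 in Lactation of the later library, from 776 and 17 UMIs, a log2 ratio of -3.42 (-4.21 to -2.73). Its other levels there were 1.37 in Involution, 0.797 in Regression, 0.616 in GF and 0.0665 in Balb/c. In the earlier library it went from 0.984 in Nulliparous to 0.281 in Gestation and 0.127 in Lactation, a log2 ratio of -1.15 (-1.80 to -0.52) for Lactation over Gestation. Lactation was thus the lowest of the 3 earlier samples, and in the later library its interval overlapped that of Balb/c alone.

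Nsg2 went from 0.979 UMIs per 10000 in Gestation to 0.106 in Lactation of the later library (750 and 19 UMIs), a log2 ratio of -3.21 (-3.95 to -2.56). Involution had 0.978, Regression 0.931, GF 0.726 and Balb/c 0.114. The earlier library gave 0.784 in Nulliparous, 0.256 in Gestation and 0.103 in Lactation, with a log2 ratio of -1.31 (-2.03 to -0.62). Lactation and Balb/c were at the foot of the order for both Dapl1 and Nsg2, and did not differ from each other beyond their intervals.

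Igfbp4, the binding protein of insulin-like growth factors, differed between the libraries. In the earlier one it was already low in Gestation, with 0.205 UMIs per 10000 against 1.04 in Nulliparous and 0.167 in Lactation. The log2 ratio of Lactation to Gestation there was -0.30, and its interval of -0.93 to 0.33 includes 0. The later library had 1.495 in Gestation and 0.284 in Lactation, a log2 ratio of -2.40 (-2.83 to -1.99), with 1.501 in Involution, 1.16 in Regression, 0.842 in GF and 0.523 in Balb/c. Lactation was the lowest sample of the later library for Igfbp4.

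Il6st, the shared chain of the interleukin-6 receptor family, stood at 0.539 UMIs per 10000 in Nulliparous, 0.303 in Gestation and 0.159 in Lactation of the earlier library. The later library had 0.632 in Gestation, 0.279 in Lactation, 0.699 in Involution, 0.676 in Regression, 0.554 in GF and 0.282 in Balb/c. The log2 ratios of Lactation to Gestation were -0.93 (-1.53 to -0.35) and -1.18 (-1.63 to -0.76). Gestation, Involution, Regression and GF had overlapping intervals, and Lactation and Balb/c lay together below them.

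St8sia6, the sialyltransferase, had the fewest UMIs. There were 79 UMIs in Nulliparous, 32 in Gestation and 8 in Lactation of the earlier library, or 0.147, 0.136 and 0.0318 per 10000. Later, 145 UMIs in Gestation and 7 in Lactation gave 0.189 and 0.0390 per 10000, with 0.179 in Involution, 0.169 in Regression, 0.107 in GF and 0.0475 in Balb/c. The log2 ratios were -2.10 (-3.43 to -0.95) and -2.28 (-3.62 to -1.20), and the earlier one was -0.78 after thinning and -3.57 in cells with no UMI of Cd79a, Ncr1 or Lyz2. As a background, B-gated cells held a St8sia6 UMI in 4.26% of Gestation cells of the later library, against 5.63% of T-gated cells, with median depths of 2071.5 and 3088 UMIs. There was no such margin in the earlier library, where the B-gated share of 5.61% was above the T-gated 1.86% (medians of 910 and 1257.5 UMIs), so the St8sia6 signal cannot be assigned to T cells alone. For Tcf7, Lef1, Dapl1, Nsg2 and Bcl11b the B-gated share in Gestation of the later library was at most 1.89%, and for Igfbp4 and Il6st it was 2.52% and 3.63%.

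Counted against all genes with at least 20 UMIs in the 2 sums together, 6 of the 9 genes were at least 2-fold lower in Lactation than in Gestation of the earlier library, where 4.06% of 10026 genes were. Later, 8 of 9 were, against 4.44% of 11949 genes. Since the genes were picked on this contrast, these counts only say how the chosen genes sit among the rest. Bcl11b was past 2-fold in neither library, and Igfbp4 and Il6st (1.91-fold) only in the later one. After thinning every cell to 1000 UMIs, 4 of 9 remained past 2-fold in the earlier library and 8 of 9 in the later. Only the 9 genes were thinned, so these counts have no share of all genes to set them against.

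The other comparisons share the Gestation sample, so each is given by its own values. Nulliparous cells of the earlier library had 4 of 9 genes at least 2-fold above Gestation, where 4.22% of 11056 genes were: Lef1 (2.17-fold), Dapl1 (3.498-fold), Nsg2 (3.06-fold) and Igfbp4 (5.10-fold). With every cell thinned to 1000 UMIs the count was 6 of 9, with Satb1 and Il6st added, and the share of all genes was not counted. Unthinned, Satb1 was 1.95-fold and Tcf7 1.63-fold above, and St8sia6 (1.08-fold) had an interval that includes no difference. Thus in the earlier library the levels were ordered Nulliparous, Gestation, Lactation for all 9 genes, with overlapping intervals between Nulliparous and Gestation for St8sia6 and between Gestation and Lactation for Igfbp4.

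Involution, the phase after weaning in which the gland regresses, had in the later library 0 of 9 genes at least 2-fold below Gestation, against 2.28% of all genes. Dapl1 was 1.35-fold above Gestation there (log2 ratio 0.43, 0.26 to 0.60). Regression likewise had 0 of 9, against 2.56% of all genes, with log2 ratios from -0.37 for Bcl11b to 0.10 for Il6st. GF had 0 of 9 against 2.30%, and its largest difference was that of Igfbp4, at a log2 ratio of -0.83 (-1.02 to -0.64). Balb/c had 7 of 9 at least 2-fold below Gestation against 5.11% of all genes. The exceptions were Satb1 (log2 ratio -0.80, -0.92 to -0.68) and Bcl11b (-0.37, -0.48 to -0.26). Each of these names is 1 sample, so strain, housing, stage and animal cannot be told apart. Ncr1, an NK cell marker, had a UMI in 30.6% of T-gated cells in Balb/c and 14.4% in GF, against 7.04% in Gestation. Lactation had 8.77%, Involution 6.58% and Regression 5.53%. Cells with neither a Cd4 nor a Cd8b1 UMI made up 75.2% in Balb/c and 65.8% in GF, against 47.2% in Gestation and 59.5% in Lactation. The part of this mix in the levels was not tested.

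The same values were also read within the gates. A cell can lack a Cd4 or Cd8b1 UMI because the RNA was missed, so the gate with neither is not a kind of T cell. Of the later library the CD4 gate held 390 Gestation and 88 Lactation cells, the CD8 gate 711 and 125, and the gate with neither 1006 and 319. Lactation thus had 16.4% of its T-gated cells in the CD4 gate and 23.3% in the CD8 gate, against 18.3% and 33.3% in Gestation. At least 2-fold lower in Lactation were 7 of 9 genes in the CD4 gate (7.04% of all genes), 6 of 8 counted genes in the CD8 gate (8.34%) and 7 of 9 in the gate with neither (4.44%).

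**Figure D2:**
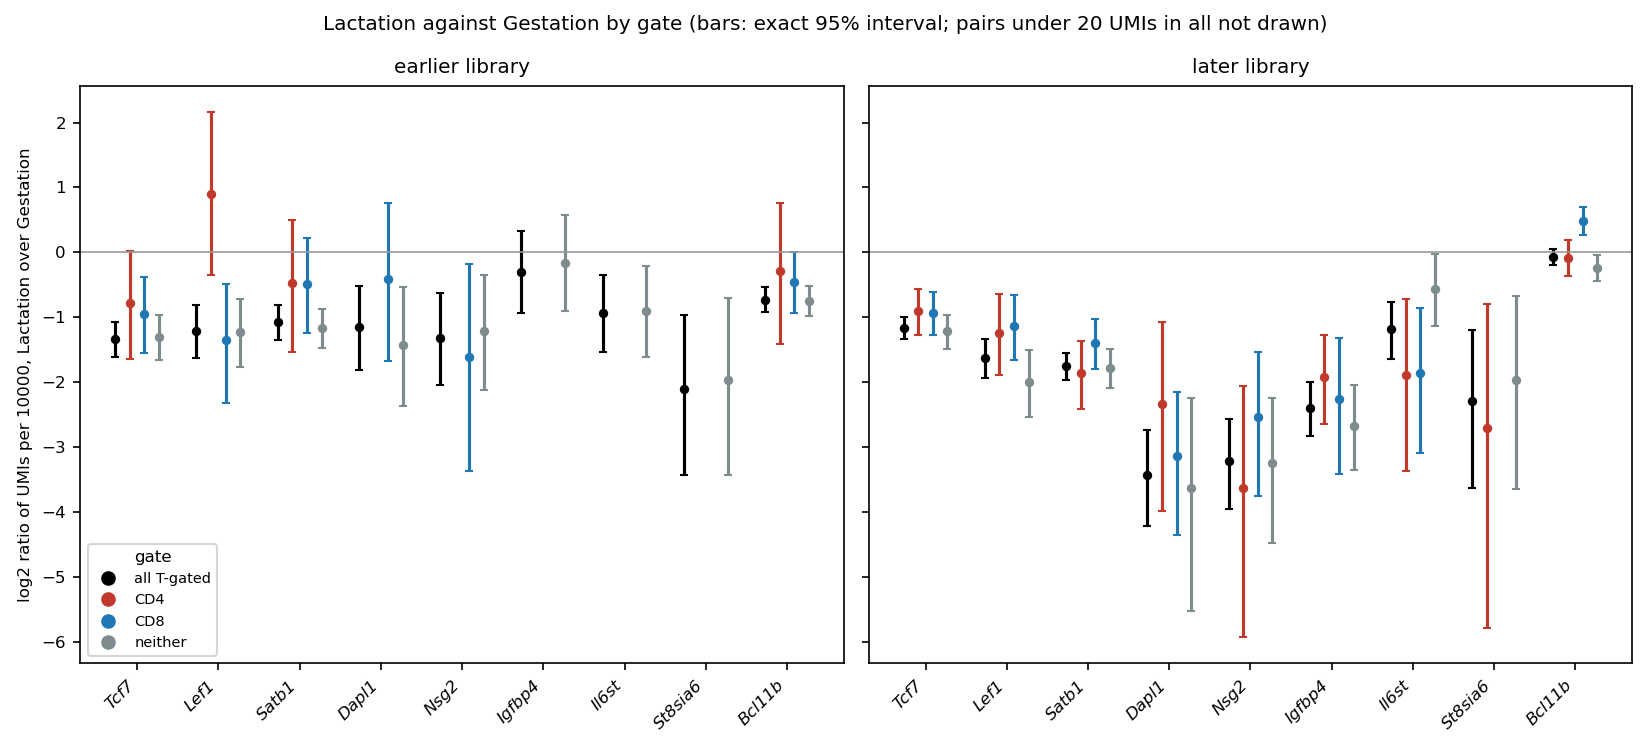
Log2 ratio of UMIs per 10000, Lactation over Gestation, for each gene, by gate (colours) and library (panels). Bars are exact 95% intervals and pairs with under 20 UMIs in all are not drawn. In the later library the points lie below 0 in every gate for the 8 genes other than Bcl11b, whose CD8 point is at 0.49.

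Within the CD4 gate of the later library, Tcf7 went from 5.29 to 2.82 UMIs per 10000, Satb1 from 4.71 to 1.30 and Igfbp4 from 2.88 to 0.763. Lef1 went from 2.24 to 0.954 there, and Nsg2 from 1.41 to 0.115, the latter on 185 and 3 UMIs. In the CD8 gate Tcf7 went from 4.13 to 2.17, Dapl1 from 1.78 to 0.204 and Satb1 from 4.02 to 1.53. For these genes the Lactation interval lay below that of Gestation in each gate named.

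Bcl11b parted from the rest in the CD8 gate, with 3.71 UMIs per 10000 in Gestation and 5.20 in Lactation of the later library, a log2 ratio of 0.49 (0.26 to 0.71). In the CD4 gate it was 5.12 and 4.85. St8sia6 had no UMI in any of 125 Lactation cells of the CD8 gate, which by the limit of 3 counts allows a share of up to 2.40%, against 1.27% of Gestation cells with a UMI.

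The earlier library had few cells in the gates: 74 Gestation and 39 Lactation cells in the CD4 gate and 217 and 115 in the CD8 gate, so most T-gated cells (81.2% and 86.0%) had neither UMI. In the CD4 gate 0 of 4 counted genes were at least 2-fold lower in Lactation, against 8.87% of all genes. In the CD8 gate 2 of 6 were (Lef1 and Nsg2), against 4.27%, and in the gate with neither 6 of 9, against 4.25%. Tcf7 went from 2.79 to 1.45 UMIs per 10000 in the CD8 gate, a log2 ratio of -0.95 (-1.54 to -0.38), and from 1.22 to 0.494 in the gate with neither. In the CD4 gate the intervals of all 9 ratios include 0, so a difference was not detectable at this depth.

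The shares of the gates were also held fixed, here in raw UMIs per cell with no correction for depth. The size of the shift differed between genes. If the Lactation cells of the later library had stood in the 3 gates in the shares of Gestation, Tcf7 would have had 0.596 UMIs per cell in place of 0.564, against 1.35 in Gestation. For Lef1 the values were 0.205 in place of 0.182, against 0.614, and for Dapl1 0.0381 in place of 0.0320, against 0.363. Bcl11b moved through most of its small difference, with 1.22 in place of 1.12, against 1.27. Il6st moved the other way, with 0.0866 in place of 0.0921, against 0.225. Corresponding earlier values for Tcf7 were 0.158 in place of 0.146, against 0.246.

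In the Balb/c sample, 5 of 9 genes were at least 2-fold below Gestation in the CD4 gate (6.28% of all genes), 3 of 8 in the CD8 gate (6.64%) and 7 of 9 in the gate with neither (4.39%). Dapl1 was low in all of them, with 0.0566, 0.257 and 0.0342 UMIs per 10000, against 0.961, 1.78 and 0.440 in Gestation. Bcl11b in the Balb/c CD4 gate was 5.09, against 5.12. In GF the counts were 1 of 9 in the CD4 gate (6.68%), 0 of 8 in the CD8 gate (3.64%) and 3 of 9 in the gate with neither (1.87%), the last being Lef1, Dapl1 and Igfbp4. Tcf7 in GF was 5.96 in the CD4 gate and 3.67 in the CD8 gate, against 5.29 and 4.13 in Gestation, and 1.84 against 2.93 in the gate with neither.

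In Involution the CD8 gate held more of these RNAs than in Gestation. Summed over the 9 genes it stood at 24.1 UMIs per 10000 (23.2 to 24.99), against 18.8 in Gestation (18.3 to 19.3) and 10.7 in Lactation (9.68 to 11.7). Regression was at 22.9 (21.8 to 24.0) and GF at 18.3 (17.4 to 19.2). Dapl1 in the CD8 gate was 2.95 in Involution, 2.13 in Regression and 1.78 in Gestation. In the gate with neither, Involution (12.1) and Regression (10.6) were below Gestation (13.3).

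Cells that carried several of the 9 RNAs at once were fewer in Lactation. At least 3 of the 9 genes were detected in 50.7% of T-gated cells in Gestation, 17.2% in Lactation, 57.1% in Involution, 50.1% in Regression, 31.9% in GF and 17.0% in Balb/c of the later library. At least 5 were detected in 26.9% of Gestation and 2.99% of Lactation cells. None was detected in 9.80% and 21.1%. The earlier library, at its lower depth, gave 30.4% of cells with at least 3 genes in Nulliparous, 8.29% in Gestation and 5.15% in Lactation.

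**Figure D3:**
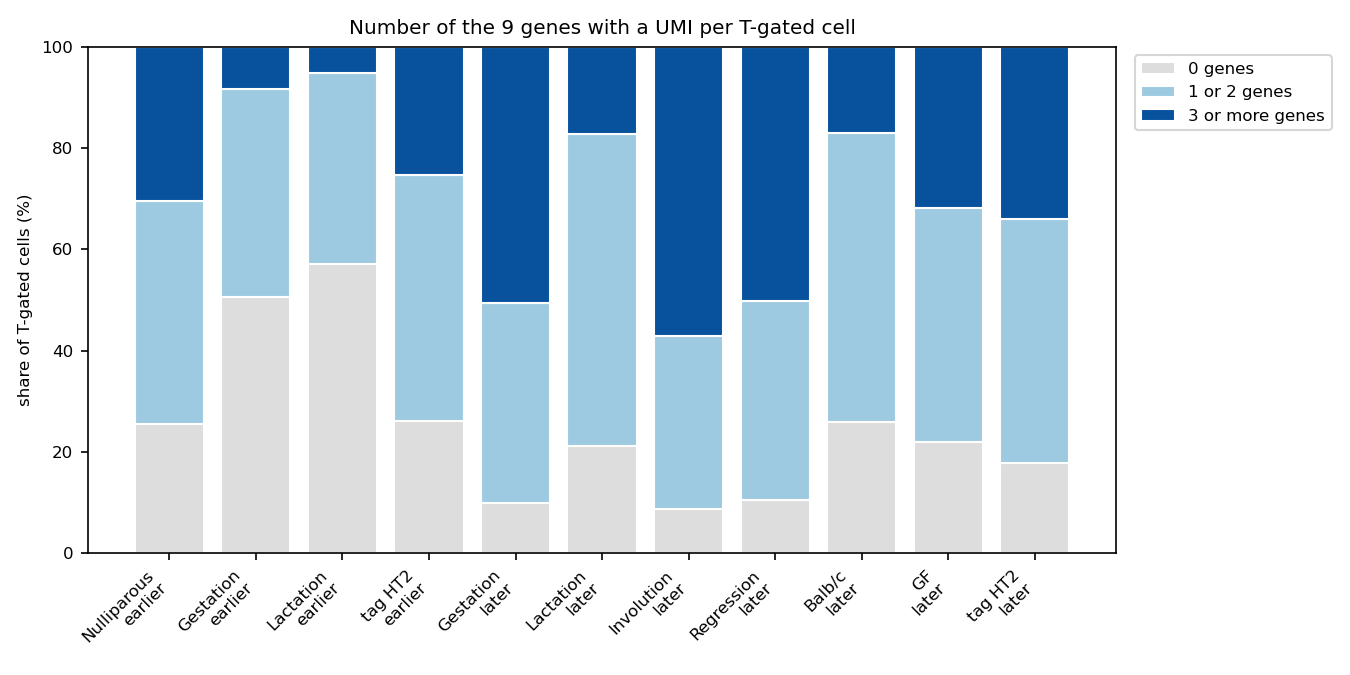
Share of T-gated cells, in percent, with a UMI of 0, of 1 or 2, or of 3 or more of the 9 genes, stacked to 100% for each hash-defined sample. The dark segment is 17.2% in Lactation and 17.0% in Balb/c of the later library, against 50.7% in Gestation.

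Both the share of positive cells and the UMIs in each positive cell were lower for most genes in the later library. Tcf7 had 2.40 UMIs per positive cell in Gestation and 1.64 in Lactation, Satb1 2.50 and 1.57, Dapl1 2.30 and 1.21, Lef1 1.72 and 1.42, and Nsg2 1.46 and 1.06. Igfbp4 had 2.47 and 2.32, and Bcl11b 2.05 and 2.02. UMIs spread at random over the cells at the observed shares would give 1.47 per positive cell for Tcf7 in Gestation and 1.23 in Lactation, and 1.13 and 1.02 for Igfbp4. Igfbp4 therefore stood in few cells (21.8% in Gestation and 4.10% in Lactation) with several UMIs each. Earlier, Tcf7 had 1.38 UMIs per positive cell in Gestation and 1.29 in Lactation, and Satb1 1.42 and 1.34.

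Thinning each cell to 1000 UMIs put the shares on 1 depth, after 346 of 1556 Gestation and 70 of 1107 Lactation cells of the earlier library were left out as shallower, with 17 of 2132 and 3 of 536 in the later one. Tcf7 was then found in 13.1% of Gestation and 6.94% of Lactation cells of the earlier library, while the later one gave 30.7% and 16.7%. Satb1 was found in 12.4% and 7.43%, and in 28.6% and 11.3%. For Igfbp4 the earlier shares were 1.98% and 1.93%, and the later ones 11.9% and 1.88%. Bcl11b gave 19.7% and 12.2%, and 30.1% and 33.2%.

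Detection of the other genes was then counted by whether a cell held Tcf7. In Gestation of the later library Lef1 was detected in 49.8% of Tcf7-positive T-gated cells and in 17.9% of Tcf7-negative ones, Satb1 in 68.4% and 36.8%, Dapl1 in 23.5% and 5.84%, and Nsg2 in 33.7% and 11.6%. In Lactation the shares in Tcf7-positive cells were 20.0% for Lef1, 32.97% for Satb1, 5.41% for Dapl1 and 8.11% for Nsg2. These shares are over 185 Tcf7-positive cells in Lactation and 1207 in Gestation, and Bcl11b was found in 69.2% and 70.8% of them. In the other library Lef1 was found in 19.8% of 126 Tcf7-positive Lactation cells and 20.7% of 276 Tcf7-positive Gestation cells. Cell depth raises such shares, and its part in them was not tested.

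Other cells in the T gate were measured beside these values with marker lists. All 5 T markers were detected in every sample, at 20.1 to 37.5 UMIs per 10000. Cd3d, Cd3e and Cd3g are among them and set the gate, so this sum is no check of the gate. The 5 markers of NK cells summed to 6.03 in Gestation and 6.38 in Lactation of the earlier library, and later to 3.71 and 5.13. The 3 markers of gamma-delta T cells found in the matrices summed to 0.733 and 1.36, and to 0.739 and 0.819. The 5 markers of regulatory T cells summed to 2.14 and 2.86, and to 2.76 and 3.34. Foxp3, which is in that list, did not rise with the sum. It stood at 0.0640 and 0.0159 in the earlier library (15 and 4 UMIs), and at 0.129 and 0.123 in the later. The higher sums in Lactation therefore come from other genes of the list. Of the 5 thymocyte markers, Rag1 and Rag2 were at 0 in all samples, and the list reached at most 0.0947 per 10000, in Lactation of the later library.

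The 6 milk protein genes summed to 9.87 UMIs per 10000 in Gestation and 162 in Lactation of the later library, with a UMI in 90.5% and 91.2% of T-gated cells. The earlier sums were 11.1 and 8.93. The 3 haemoglobin genes stood at 7.25 in Gestation and 0.396 in Lactation of the later library. The 6 epithelial markers summed to 7.41 and 100.2, the 4 stromal markers to 0.928 and 2.81 and the 3 plasma cell markers to 0.547 and 3.44 there, with earlier sums of 6.84 and 5.71, of 0.303 and 0.222, and of 41.3 and 25.5. Csn2, Csn3 and Wap are in both the milk and the epithelial list. The 2 sums therefore share UMIs, and the epithelial sum does not separate free milk RNA from epithelial cells. The 4 B cell markers went from 1.33 to 0.479 in the later library and from 0.580 to 0.488 in the earlier. Myeloid markers (6 genes) were at 3.98 and 5.23 in the later library and at 5.69 and 4.01 in the earlier, and markers of group 2 innate lymphoid cells (5 genes) at 2.04 and 2.37 and at 1.39 and 0.762. The part of these other cells in the result was not tested. All 9 genes were below Gestation in both libraries with milk, haemoglobin, ribosomal and mitochondrial genes taken from the total, and likewise in cells with no UMI of Cd79a, Ncr1 or Lyz2. Since the genes were picked on this contrast, their direction here is a description. The later Lactation tag was weak, and with at least 10 tag counts 116 of its 536 T-gated cells were left. In those, 8 of 9 genes were below Gestation and 7 of 9 at least 2-fold, with a log2 ratio of -0.77 for Tcf7, -4.25 for Igfbp4, -5.22 for Nsg2, -1.82 for Il6st and 0.41 for Bcl11b, and Dapl1 had 0 UMIs. The share of all genes past 2-fold was not counted in those cells. Under the margin rule Igfbp4 was at -3.00.

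Genes of the same programmes were read from 6 lists in a fit of edgeR (quasi-likelihood, year as a term, Benjamini-Hochberg adjustment over 10528 genes) on the T-gated sums of Gestation and Lactation. The fit has 2 samples per stage and 1 residual degree of freedom. It draws the spread of each gene towards that of all genes, with a prior of 9.56 degrees of freedom. It called 6 genes lower (0.0570% of those tested) and 5 higher, and 483 had an unadjusted p under 0.05. The split was 13 lower and 7 higher with a trimmed denominator and 6 lower and 3 higher with DESeq2. Of those calls, 8 with the trimmed denominator and 3 with DESeq2 were among the calls of the main fit. The genes called lower in the main fit were Hba-a1, Hba-a2 and Hbb-bs, S1pr1, Il6ra and Lef1. Lef1 was used in choosing the 9 genes, so its call is no test. The genes called higher were the collagen genes Col1a1, Col1a2 and Col3a1 and the immunoglobulin segments Ighv1-82 and Igkv17-121. In the earlier library the 3 haemoglobin genes had at most 1 UMI and the 3 collagen genes at most 3 UMIs in either stage, so the counts behind these 6 calls are those of the later library.

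Of 21 other genes of naive and recirculating T cells, 20 were tested, 1 was called lower and none higher. The one called is S1pr1, the receptor by which T cells leave tissues and lymph nodes. It stood at 1.09 UMIs per 10000 in Gestation and 0.413 in Lactation of the earlier library and at 2.33 and 0.880 in the later. Its fitted log2 change was -1.43 (SE 0.19, edgeR adjusted p = 0.0226, lower in both libraries). The list's median log2 change was -0.77, against 0.01 over all genes tested, and 18 of the 20 lay below 0 in both libraries, as did 21.3% of all genes. This list was drawn up with earlier results of these data known, so it is no independent evidence of direction.

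Ccr7, a lymph node homing receptor of naive and central memory T cells, did not pass, at an edgeR adjusted p of 0.0714. Its earlier levels were 0.405 UMIs per 10000 in Gestation and 0.191 in Lactation, and its later ones 1.09 and 0.412. Klf2, a factor that drives S1pr1, had 2.70 and 1.02, and 3.72 and 2.40, with an edgeR adjusted p of 0.231. Cd44, which marks antigen-experienced T cells, had 1.04 and 0.727, and 1.21 and 1.49, and an edgeR adjusted p of 0.997, with opposite signs in the libraries.

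Of 25 effector, memory and residency genes, all were tested and none was called, with 7 at an unadjusted p under 0.05 (DESeq2 called 1). Their median log2 change was 0.25, with medians of -0.01 within the earlier library and 0.68 within the later, on the log2 scale of UMIs per 10000 plus 0.1. Of the 25, 6 had a fitted change below 0 and 9 were higher in both libraries. Of 21 partners of Tcf7 and Lef1 in the WNT pathway, 17 were tested and none was called, with a median of -0.06 and 2 at an unadjusted p under 0.05. DESeq2 called none of them. Of 14 T lineage transcription factors, 13 were tested and none was called by edgeR or DESeq2, with a median of -0.04 and 0 at an unadjusted p under 0.05.

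Of 15 receptors and signalling partners of Il6st, 12 were tested and 1 was called lower, Il6ra, which encodes the interleukin-6 binding chain that pairs with gp130. Il6ra stood at 0.337 UMIs per 10000 in Gestation and 0.107 in Lactation of the earlier library and at 0.823 and 0.318 in the later, a fitted log2 change of -1.52 (SE 0.23, edgeR adjusted p = 0.0444). The list's median was -0.08. Il6ra was also the gene called among 10 tested family relatives of the 9 genes. The fitted median of the relatives was -0.26, and their medians within the libraries differed in sign, at -0.14 in the earlier and 0.08 in the later. The calls of S1pr1 and Il6ra were lost without the year as a term, under the margin rule for tags and without TMM. That of Il6ra was also lost with DESeq2 and with a gate of at least 2 Cd3 UMIs.

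The genes most like the 9 in pattern were found by Spearman correlation with their summed level, on library-centred log2 values over the 11 hash-defined samples, among 11475 genes with at least 100 UMIs. These were Dock11, Foxp1 and Rasgrp2 (rho 0.99 each), 5830444F18Rik (0.98) and Dgka (0.97), the last level with Foxo1 and Gm42449. The 9 genes themselves ranged from 0.67 for Bcl11b to 1.00 for Satb1, each being part of the sum. Tag HT2 of each library is among the 11 samples. The points share libraries and depth, and the values are given as a description.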

How the data were processed

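Cells of the mouse mammary gland sorted as CD45+ were measured in 2 pooled droplet libraries with hash tags (10x Genomics 3' v3.1, per the labels' protocols). The authors deposited raw UMI count matrices of genes and of tags. The header of the earlier gene matrix names Cell Ranger 4, and the submitters' processing notes name Cell Ranger 6.1.0 and mm10. Samples were taken from the deposited sheets that name the tags, and the HT4 tag of the later library had 1 count and was dropped. Genes were matched between libraries by symbol.

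Barcodes under 500 UMIs or 300 genes, or above 10% mitochondrial UMIs, were dropped. Tags were assigned with HTODemux (Seurat 5.3.0, quantile 0.99). Scrublet calls (scanpy 1.11.5, expected rate 0.08) and Leiden clusters of at least 50% such calls were removed. Levels are sums of counts with exact intervals (scipy 1.17.1). Genes were fitted with edgeR 4.0.16 (TMM, filterByExpr) and, as an alternative, with DESeq2 1.42.0. The edgeR step was tested on simulated counts of the same genes. Those counts held no difference between libraries other than their size, so the test does not cover the spread between libraries. Named are the 9 genes, genes of the lists with an adjusted p under 0.05, Ccr7, S1pr1, Klf2 and Cd44, and the 5 genes most alike. The haemoglobin, collagen and immunoglobulin genes called by the fit, and 2 genes tied with the fifth most alike, were named after their values were seen. The shares of Ncr1 and the levels of Foxp3 were likewise added after they were seen. Some results of the same kind are not reported here. The 9 genes and the lists were chosen with earlier results of these data known. Nothing says that samples of 1 name came from separate animals, so p-values do not measure the spread between animals. Those of edgeR rest on the spread between these samples, taken mostly from all genes together and little from each gene alone. Alternatives were other gates, tag rules, doublet treatment, depth, denominators and tools. Tag HT2 was left out of all comparisons between stages.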

Additional observations from a re-analysis of the deposited data

Results flagged for a closer look

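In the CD8 gate, Bcl11b differed in direction between the libraries: the log2 ratio of Lactation over Gestation was 0.49 in the later library (95% interval 0.26 to 0.71) and -0.45 in the earlier one (-0.93 to 0.01). In the CD4 gate, Lef1 had a log2 ratio of -1.23 in the later library (-1.88 to -0.64) and 0.90 in the earlier one (-0.35 to 2.16), the latter on 13 and 12 UMIs. Each was picked out because the 2 libraries pointed in opposite ways, with at least 1 interval away from 0 and at least 20 UMIs over both stages in each library. Pairs with fewer UMIs were not considered. The difference between the libraries was not tested, and both earlier intervals include 0.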

How the results depend on the processing

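All 9 genes were lower in Lactation in both libraries under each alternative, except Bcl11b in the later library under the margin rule, after thinning and in cells with at least 10 tag counts (8 of 9 lower each). That last alternative was chosen after seeing the data. The genes were picked on this contrast, so these counts are a description. They include Igfbp4 in the earlier library and Bcl11b in the later, whose reported intervals include 0. Of all genes tested in the main fit, 21.3% were lower in both libraries. That share was not counted under the alternatives. Under the alternatives 110 log2 ratios stayed within the interval of the reported value and 14 lay outside it. Of the shares of cells with a UMI, 167 stayed within their interval and 49 did not, 31 of them after thinning. St8sia6 (thinned) and Dapl1 (10 tag counts) had 0 UMIs in Lactation of the later library, so those ratios have no value. The number of the 9 genes in GF at least 2-fold below Gestation went from 0 to 1 with a gate of 2 UMIs and to 1 after thinning. The share of all genes past 2-fold was not counted under these alternatives.

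The 11 genes called by edgeR in Lactation minus Gestation became 9 with DESeq2, 5 without TMM, 174 without the low-count filter, 26 with doublet calls kept and 20 with the trimmed denominator (no CT010467.1, mitochondrial, ribosomal, haemoglobin or milk genes). The stricter gate gave 11. These were in part other genes. Of the first 11, 3 were called again with DESeq2, 7 with the stricter gate and 10 with doublet calls kept. The trimmed denominator, which leaves the haemoglobin genes out, kept 8, the fit without TMM 5 and that without the filter 11. The calls became 0 in edgeR with no replicate block (186 at an unadjusted p under 0.05) and 0 under the margin rule (444). In the naive list 1 call became 3 with DESeq2, 0 without TMM, 10 without the filter, 0 without the block, 3 with a gate of 2 UMIs, 0 under the margin rule, 4 with doublet calls kept and 4 with the trimmed denominator. In the effector list 0 became 1 with DESeq2 and 3 without the filter, and in the WNT list 0 became 1 without the filter. The call of Il6ra, counted in the Il6st and the relatives lists, became 0 with DESeq2, without TMM, without the block, with a gate of 2 UMIs and under the margin rule, and the relatives list had 2 without the filter. The cause was not tested. Each library alone leaves 1 sample per stage and gives no count of calls. Samples are paired by library, and the year is a term of the fit. The CD4 gate of the earlier library rests on 74 Gestation and 39 Lactation cells.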

Other observations

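Apart from the correlation over the hash-defined samples, cells of tag HT2, whose name is disputed, are given as values only. In the earlier library its 863 T-gated cells held 13.6 UMIs per 10000 of the 9 genes in sum, beside 13.2 in Nulliparous, with Tcf7 at 2.81, Igfbp4 at 1.07 and Dapl1 at 0.914. In the later library its 457 T-gated cells held 11.5, beside 12.4 in GF, with Tcf7 at 2.70, Igfbp4 at 1.24, Dapl1 at 0.456 and Bcl11b at 2.05, the lowest Bcl11b level of the 7 samples of that library.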
